A study of Homo sapiens with 6 samples.

Results

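The HOX genes encode homeodomain transcription factors that lie in 4 clusters, HOXA, HOXB, HOXC and HOXD. They were described here in HK-2 cells, an immortalized line made from the proximal tubule of a human kidney, with and without overexpression of hnRNP-F. The members were the rows of the count table that were typed as protein-coding and whose symbol was HOXA, HOXB, HOXC or HOXD followed by a number. This rule found 38 of the 39 human HOX genes among 31831 rows, of which 17551 were protein-coding. These were 11 HOXA, 9 HOXB, 9 HOXC and 9 HOXD genes, and HOXB1 was not analysed here.

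Both groups came from HK-2 cells transduced with lentivirus, with 3 RNA-seq libraries of poly(A) RNA in each. HG-NC cells carried the control vector, a plasmid in the labels and a lentivirus in the methods, HG-OE cells carried the vector that overexpresses hnRNP-F, and by the study's methods both were kept in 30 mM glucose for 72 h. The sample labels give the vector but not the medium, and neither source says whether a library came from 1 clone or from mixed transduced cells. The study calls the libraries of a group biological replicates, but how their cultures were kept apart is not given in the sources used here, so p-values measure the spread between these libraries. The mannitol libraries were not analysed here. Each library held between 25507595 and 29444841 counted read pairs.

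Within a cluster, HOX genes are numbered from 1 to 13 by their order along the chromosome, and genes with the same number in different clusters, called paralogs, descend from a common ancestral gene. In the embryo, low-numbered (anterior) genes act toward the head and high-numbered (posterior) genes toward the tail and the ends of the limbs. Adult cells often keep a pattern of HOX expression that reflects their place of origin. In the kidney, the genes of paralog group 11 are required for the metanephric kidney to form, and the promoter of Hoxb7 is widely used to mark the ureteric bud. HOX proteins bind DNA together with cofactors of the PBX and MEIS families, and Polycomb proteins keep the clusters silent where trithorax-type MLL complexes keep them active.

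Promoter sequences are shown for HOXA9, HOXA11 and HOXD11, since HOXA9 had the highest mean level of all members, HOXA11 the largest difference between the groups, and HOXD11 the highest level in its cluster. Each is the stretch of 250 bases before the start of the gene in RefSeq, on build GRCh38.p14, printed 5′ to 3′ on the strand of the gene. Capitals mark matches, on either strand, to any of 4 motifs. The composite site bound by HOX and PBX proteins together was searched as TGATNNAT. The core promoter element named the TATA box was searched as TATAAA. The element bound by the factor NF-Y, the CCAAT box, was searched by these 5 letters. The element bound by SP1, the GC box, was searched as GGGCGG. Matches were not kept apart from each other, and a match to one motif can touch another.
HOXA9 promoter, chr7:27165538-27165787, minus strand: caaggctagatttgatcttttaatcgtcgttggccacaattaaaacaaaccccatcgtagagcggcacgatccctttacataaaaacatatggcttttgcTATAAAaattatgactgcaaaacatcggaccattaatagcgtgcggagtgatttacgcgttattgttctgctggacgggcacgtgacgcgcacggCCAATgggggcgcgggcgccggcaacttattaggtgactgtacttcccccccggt
HOXA11 promoter, chr7:27185233-27185482, minus strand: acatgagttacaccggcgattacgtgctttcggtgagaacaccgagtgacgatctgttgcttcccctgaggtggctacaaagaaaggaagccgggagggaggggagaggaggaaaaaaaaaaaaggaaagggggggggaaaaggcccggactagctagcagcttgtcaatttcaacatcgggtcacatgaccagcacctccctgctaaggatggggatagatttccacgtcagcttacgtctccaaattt
HOXD11 promoter, chr2:176107030-176107279, plus strand: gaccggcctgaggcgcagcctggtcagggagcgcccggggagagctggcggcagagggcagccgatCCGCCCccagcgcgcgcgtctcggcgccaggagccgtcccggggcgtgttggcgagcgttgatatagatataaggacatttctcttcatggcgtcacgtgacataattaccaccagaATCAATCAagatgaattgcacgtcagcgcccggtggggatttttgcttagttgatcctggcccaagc
In GENCODE release 44 the HOXA9 and HOXD11 windows lie in introns of longer transcripts of the same genes. The HOXA11 window lies outside HOXA11 and overlaps exons of HOXA11-AS, an antisense transcript on the other strand. RefSeq promoters were matched for 19 of the 38 members. HOXC4 and HOXC5 share 1 window, so 18 windows were distinct, of which 9 were of HOXA, 1 of HOXC and 8 of HOXD genes, and the shares below describe mainly HOXA and HOXD. A CCAAT box was found in 15 of these 18 windows, or 83.3%, against 34.5% of 15745 distinct protein-coding promoters of the same length. The TATA box was found in 4 of 18 HOX windows against 9.27% of all, and the HOX-PBX site in 2 of 18 against 4.41%. The GC box was found in 10 of 18 windows, or 55.6%, against 56.0% of all promoters. The HOXA9 window held 1 TATA box and 1 CCAAT box, the HOXD11 window 1 HOX-PBX site and 1 GC box, and no match to these letters was found in the HOXA11 window. Of the 9 matched promoters whose genes were lower in HG-OE, described below, 7 held a CCAAT box, beside 15 of all 18 windows, which include these 9. The TATA box was found in 3 of the 9, beside 4 of all 18. The HOX-PBX site was found in 1 of the 9, beside 2 of all 18, and the GC box in 5, beside 10. The CCAAT box was thus not more frequent among the genes that fell. A difference in any of these motifs was not tested. A match is a description of the sequence and not a binding site.

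HNRNPF, the gene of hnRNP-F, had counts of 7733, 8623 and 8692 in HG-NC and 12492, 13155 and 12397 in HG-OE. All HG-OE libraries lay above all HG-NC libraries, and the log2 fold change was 0.48 ± 0.039 (SE). Of 10 proximal tubule markers, none reached a mean of 1 FPKM, the unit of read pairs scaled to transcript length and library size. LRP2 was at 0 counts in 5 of 6 libraries, while SLC5A2 had 73 to 127 counts and MME 91, 140 and 113 in HG-NC against 236, 258 and 261 in HG-OE. Of 6 epithelial markers, 5 reached that level, and CDH1, the exception, had 2 to 10 counts in 5 libraries and 384 in HG-OE replicate 3. Of the 5, KRT8, KRT18 and KRT7 rose, with log2 fold changes of 1.35, 0.76 and 0.38. EPCAM and KRT19 fell, with log2 fold changes of -0.56 and -0.55. SLC5A2, MME and CDH1 were named after their values were seen. HG-OE replicate 3 stood apart. In CPM, the counts divided by library size on a common scale, the 14 hepatocyte markers summed to 268 to 279 CPM in HG-NC and to 463, 465 and 790 CPM in HG-OE replicates 1, 2 and 3, and the 14 squamous epithelial markers to 77.1 to 82.2 CPM for HG-NC and 183, 180 and 268 CPM for HG-OE. In each of these lists 1 gene carried most of the sum. SERPINA1, of the hepatocyte list, was at 258 to 275 CPM in HG-NC and at 457, 458 and 395 CPM in HG-OE, and without it the sum was 3.62 to 14.5 CPM for HG-NC and 6.79, 6.42 and 395 CPM for HG-OE. S100A2, of the squamous list, was at 58.3 to 62.1 CPM in HG-NC and at 165, 164 and 181 CPM in HG-OE, and without it the sum was 18.4 to 20.1 CPM for HG-NC and 18.1, 16.4 and 88.0 CPM for HG-OE. The sums of the remaining markers of both lists were thus high in HG-OE replicate 3 and not in HG-OE replicates 1 and 2. Not every marker followed its sum. FGB had 24, 29 and 55 counts in HG-NC and 124, 134 and 994 in HG-OE, so it was also higher in HG-OE replicates 1 and 2. KRT15 had 122, 145 and 160 counts in HG-NC and 107, 149 and 124 in HG-OE. FGB and KRT15 were named after their values were seen. ALB and KRT5, named after their values were seen, had 4359 and 334 counts in HG-OE replicate 3, while KRT5 was at 0 in the other 5 libraries. ALB had 4, 1 and 78 counts in HG-NC and 0 and 1 in HG-OE replicates 1 and 2. HG-NC replicate 3 thus also held more ALB than the other HG-NC libraries, at a far lower level than HG-OE replicate 3. The 6 epithelial markers summed to 885 to 900 CPM for HG-NC and 1180, 1211 and 1835 CPM for HG-OE replicates 1, 2 and 3. Without KRT8, that sum was 592 to 602 CPM for HG-NC and 551, 558 and 852 CPM for HG-OE. The summed markers of fibroblasts were 35.7 to 39.0 CPM for HG-NC and 31.9, 32.5 and 41.8 CPM for HG-OE replicates 1, 2 and 3, and those of endothelium and leukocytes did not exceed 3.07 CPM in any library. The HOX counts, medians and sums are therefore also given without HG-OE replicate 3. The part of these other markers in the HOX results was not tested.

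HK-2 cells expressed genes of all 4 HOX clusters, from the anterior to the posterior end. Of the 38 members, 27 had a mean of at least 1 FPKM over the 6 libraries, 6 lay between 0.1 and 1 FPKM, and 5 lay under 0.1 FPKM. HOXD1 (1.20 FPKM) and HOXB3 (1.28 FPKM) lay just above the limit of 1 FPKM, and HOXD3 (0.83 FPKM) and HOXA2 (0.79 FPKM) just below it. All 9 HOXB genes passed the limit, with 8 of 11 HOXA, 6 of 9 HOXD and 4 of 9 HOXC genes. FPKM values are used here to compare levels between genes, since they are divided by the length of the gene.

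Most of the HOX signal came from HOXA and HOXB. In HG-NC the genes of a cluster summed to 86.5 ± 1.79 FPKM for HOXA, 80.6 ± 1.37 FPKM for HOXB, 30.3 ± 0.282 FPKM for HOXD and 17.1 ± 0.922 FPKM for HOXC (mean ± SD, n = 3 libraries). In HG-OE the order of the first 2 was turned, with 64.1 ± 1.78 FPKM for HOXB, 60.3 ± 2.26 FPKM for HOXA, 21.7 ± 1.79 FPKM for HOXD and 15.4 ± 0.131 FPKM for HOXC. Among single genes in HG-NC, HOXA9 led with 37.2 ± 1.13 FPKM, followed by HOXB9 (25.0 ± 0.680 FPKM), HOXB2 (22.2 ± 0.905 FPKM) and HOXB7 (18.9 ± 0.701 FPKM). In HG-OE, HOXA9 and HOXB9 lay within their spread of each other at 19.5 ± 0.866 and 19.1 ± 1.37 FPKM, followed by HOXB7 (17.6 ± 0.353 FPKM) and HOXB2 (11.2 ± 0.769 FPKM). Over all 6 libraries, HOXA9 lay at percentile 87.0 of the 10866 protein-coding genes with at least 1 FPKM, whose median was 6.34 FPKM. By paralog group, the 4 members of group 9 came first in both groups of libraries, with a mean sum of 69.5 FPKM in HG-NC and 45.3 FPKM in HG-OE. In HG-NC group 7 (26.4 FPKM), group 10 (24.1), group 2 (23.0) and group 4 (21.8) followed, and in HG-OE group 7 (22.8 FPKM), group 4 (21.2), group 10 (17.6) and group 2 (11.9). Posterior genes (groups 9 to 13) summed to 112 FPKM in HG-NC and 74.6 FPKM in HG-OE, central genes (groups 4 to 8) to 68.6 and 65.5 FPKM, and anterior genes (groups 1 to 3) to 33.9 and 21.5 FPKM.

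The lowest members lay at the posterior ends of HOXA and HOXD and in HOXC. HOXA13 and HOXD13, which shape the digits and the lower urogenital tract, had 5 to 16 and 2 to 7 counts in the 6 libraries. HOXD12 had 3 to 9 counts, HOXC5 had 0 or 1 count, and HOXC12 was at 0 counts in 5 libraries and at 2 in HG-OE replicate 3. Where a library showed 0, counting error alone allows for up to 3 counts. HOXB13 and HOXC13 were exceptions at the posterior end, with 1.39 and 2.51 FPKM in HG-NC. The other members between 0.1 and 1 FPKM were HOXA6, HOXC4, HOXC8 and HOXC11, with HOXA2 and HOXD3 as given above.

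**Figure D1:**
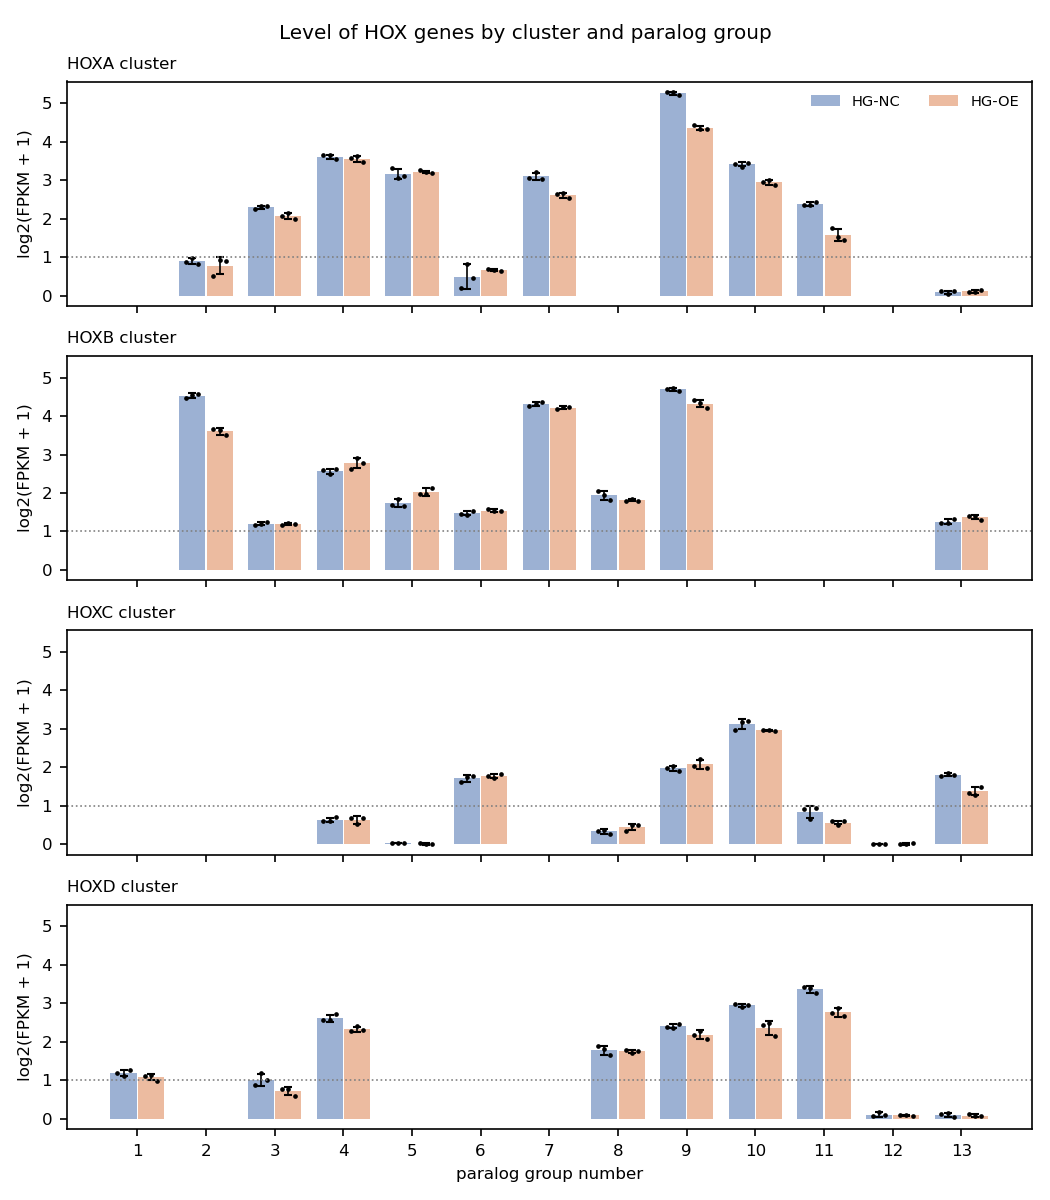
Level of HOX genes by cluster (panels) and paralog group number (x axis), as log2(FPKM + 1) on the y axis. Bars are means of 3 libraries, points are libraries, error bars are SD, and the dotted line marks 1 FPKM. In HG-NC, HOXA9, HOXB9, HOXB2 and HOXB7 stand highest, and the HG-OE bars are below the HG-NC bars for HOXA9, HOXA11 and HOXB2.

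Overexpression of hnRNP-F went with lower levels of 13 HOX genes and higher levels of 2. The genes that fell were HOXA3, HOXA7, HOXA9, HOXA10, HOXA11, HOXB2, HOXB9, HOXC11, HOXC13, HOXD3, HOXD4, HOXD10 and HOXD11, and those that rose were HOXB4 and HOXB5. The groups were compared by edgeR's quasi-likelihood test, fitted over the 17142 genes that passed its filter on low counts, with p-values adjusted over all of them by the Benjamini-Hochberg method and a threshold of 0.05. Of the 38 members, 34 passed the filter, and HOXC5, HOXC12, HOXD12 and HOXD13 did not. The 13 that fell were 38.2% of the 34 tested, against 25.9% of all genes tested, and the 2 that rose were 5.88% against 25.9%. In either direction the share was 44.1% of the HOX genes against 51.8% of all genes, so the HOX genes were not called more often than others. In 17 of 34 members the 3 HG-OE libraries did not overlap the 3 HG-NC libraries, against 59.0% of all genes.

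The differences were mostly below 2-fold. When a 2-fold change was required as well as an adjusted p under 0.05, 1 HOX gene was lower (HOXA11), against 2.13% of all genes. By that rule none was higher, against 3.69% of all genes, in edgeR, DESeq2 or limma, and the highest log2 fold change of any member was 0.53 (HOXC8). An unadjusted p under 0.05 was reached by 17 of the 34, namely the 15 above with HOXC10 and HOXD9, both with negative log2 fold changes. A fall of at least 1.5-fold was seen in 8 genes: HOXA9, HOXA11, HOXB2, HOXC11, HOXC13, HOXD3, HOXD10 and HOXD11. The median log2 fold change of the 34 was -0.17, against 0.011 over all genes tested. With 3 libraries against 3, an exact two-sided permutation test of a single gene cannot go below 0.1, the value it gave for each of the 15 genes that rose or fell. In bulk RNA, fewer cells that express a gene and less RNA of it per cell cannot be told apart.

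Without HG-OE replicate 3, 13 HOX genes were lower, the same 13, and 2 were higher, and the median log2 fold change was -0.13. HG-OE replicate 3 was the lowest of the HG-OE libraries in 20 of the 34 tested genes and in 10 of the 13 that fell. Without it, no gene kept a 2-fold change, since the log2 fold change of HOXA11 became -0.99 (adjusted p = 1.21e-10). The 15 genes that rose or fell moved by at most 0.14 on the log2 scale when it was left out, the most for HOXD3. The cluster medians without it were -0.24 for HOXA, -0.0051 for HOXB, -0.083 for HOXC and -0.32 for HOXD, and the cluster sums in CPM were 0.687, 0.805, 0.900 and 0.749 of the HG-NC level. Summed over the 38 members, the level was 593, 602 and 590 CPM for HG-NC replicates 1, 2 and 3 and 444, 451 and 421 CPM for HG-OE replicates 1, 2 and 3. The groups did not overlap in this sum, and HG-OE replicate 3 was its lowest library.

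**Figure D2:**
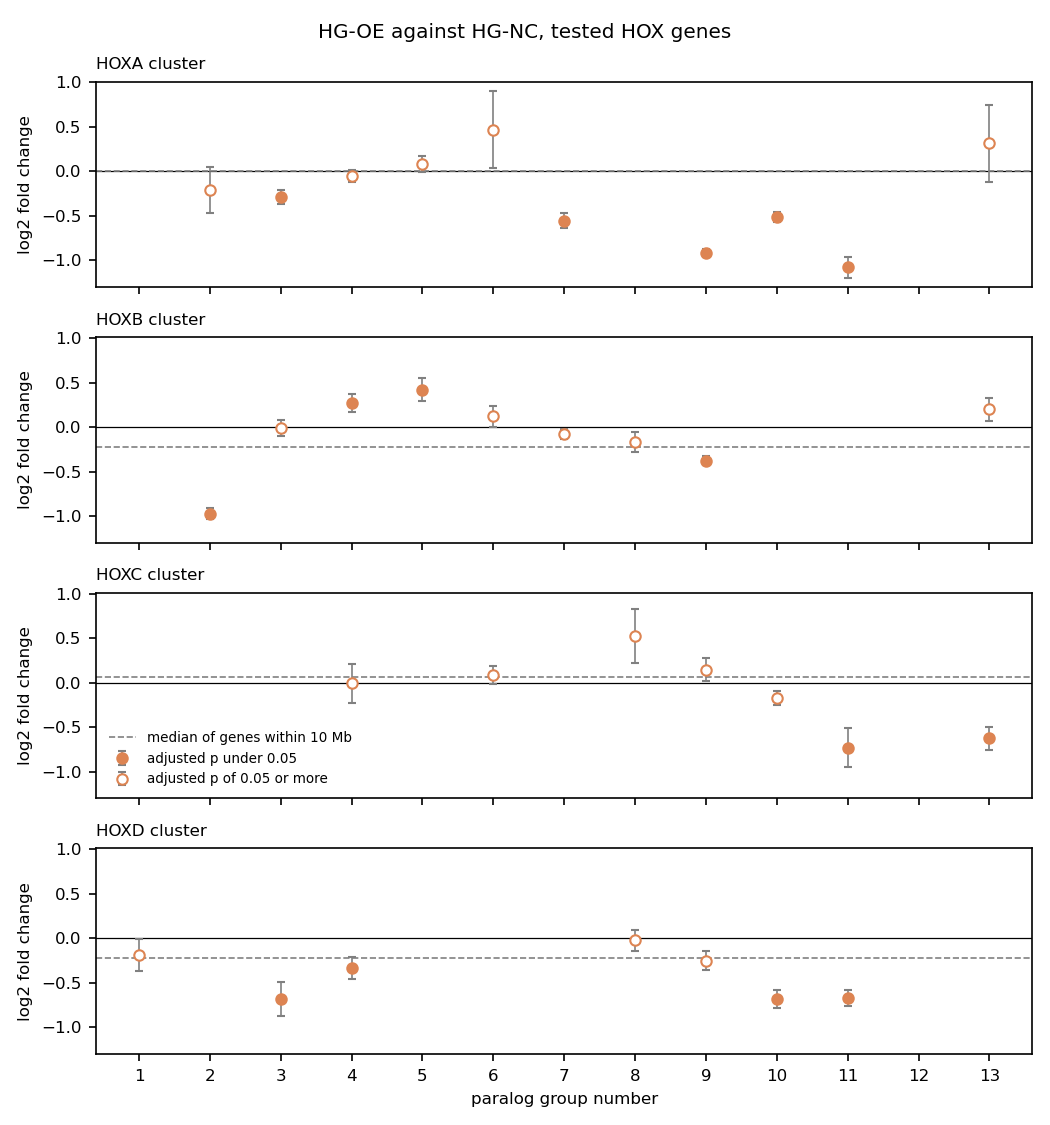
Log2 fold change of HG-OE against HG-NC (y axis) for tested HOX genes, by cluster (panels) and paralog group number (x axis), with SE from edgeR as error bars. Filled points have an adjusted p under 0.05, and the dashed line is the median of the genes within 10 Mb. HOXA11 lies lowest at -1.08 and the genes of groups 9 to 11 lie below 0 except HOXC9.

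The HOXA cluster lies on chromosome 7 of GRCh38, with all its genes on the minus strand. Of 11 tested HOXA genes, 5 fell and none rose, and the median log2 fold change was -0.20. This median was the value of HOXA2, a low gene with an SE of 0.26. Taken for each HG-OE library against the HG-NC mean, the HOXA median had an SD of 0.16. The sum over the cluster fell from 268 ± 5.36 CPM in HG-NC to 180 ± 6.75 CPM in HG-OE, or to 0.673 of the HG-NC level, and the groups did not overlap. Over the 6 libraries, HOXA9 alone gave 38.6% of the FPKM of the cluster. The genes that fell were HOXA3 and 4 genes that follow each other toward the posterior end, HOXA7, HOXA9, HOXA10 and HOXA11.

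HOXA9, a posterior gene that sustains blood progenitors and drives leukaemia when overexpressed, had 3277, 3481 and 3391 counts in HG-NC and 2022, 1901 and 1904 counts in HG-OE. All 3 HG-OE libraries were far below the HG-NC libraries and close to each other. The CPM was 126 ± 4.3 in HG-NC and 66.7 ± 2.6 in HG-OE, and the log2 fold change was -0.92 ± 0.045 (SE, adjusted p = 3.49e-09). HOXA10, known for its role in the endometrium, had 1037, 1038 and 1150 counts in HG-NC and 820, 861 and 779 in HG-OE, and its log2 fold change was -0.51 ± 0.058 (adjusted p = 7.11e-06). HOXA11, which is needed in the forearm and, with its paralogs, in the metanephric kidney, had 316, 330 and 368 counts in HG-NC and 204, 165 and 152 in HG-OE. It showed the largest difference of all 34 tested members, from 12.6 ± 0.51 to 5.96 ± 0.95 CPM, with a log2 fold change of -1.08 ± 0.12 (adjusted p = 4.84e-06). HOXA7, a gene of the trunk, had 498, 605 and 542 counts in HG-NC and 408, 425 and 385 in HG-OE, without overlap after scaling to library size, and its log2 fold change was -0.55 ± 0.083 (adjusted p = 7.91e-05).

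HOXA9, HOXA10 and a row listed as HOXA10-HOXA9, a read-through transcript across both, overlap on the same strand, so reads can be split between them. The read-through row had 15, 30 and 23 counts in HG-NC and 12, 18 and 7 in HG-OE, too few to change the sum. Added together, the 3 rows came to 167 CPM in the HG-NC mean and to 95.2 CPM in HG-OE, a log2 ratio of -0.81. The gene model of HOXA3 likewise spans HOXA4, HOXA5 and HOXA6. Neither the strand setting nor the rule for overlapping genes in the counting is given in the sources used here, so the split between these genes, and between a HOX gene and its antisense RNA, is uncertain.

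The anterior and central HOXA genes differed less, apart from HOXA7. HOXA3, which acts in the pharyngeal arches and the thymus, had 462, 523 and 535 counts in HG-NC and 445, 485 and 421 in HG-OE, and its log2 fold change was -0.29 ± 0.079 (adjusted p = 0.00726). After scaling to library size the groups did not overlap, at 18.9 ± 0.62 CPM for HG-NC and 15.5 ± 1.1 CPM for HG-OE. HOXA4 had 567, 601 and 576 counts in HG-NC and 610, 645 and 577 in HG-OE, and HOXA5, which acts in the lung, had 438, 382 and 405 counts against 478, 473 and 464. Both genes overlapped between the groups, with log2 fold changes of -0.050 and 0.085 and adjusted p of 0.580 and 0.445. HOXA2, HOXA6 and HOXA13 were too low for a precise estimate, with SEs of 0.26, 0.43 and 0.43 on the log2 scale and adjusted p between 0.391 and 0.566. HOXA6 rested on HG-NC replicate 2, which had 30 counts against 5 and 15 in the other HG-NC libraries and 26, 25 and 24 in HG-OE, and without that replicate its log2 fold change was 1.20 (adjusted p = 0.0449).

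**Figure D3:**
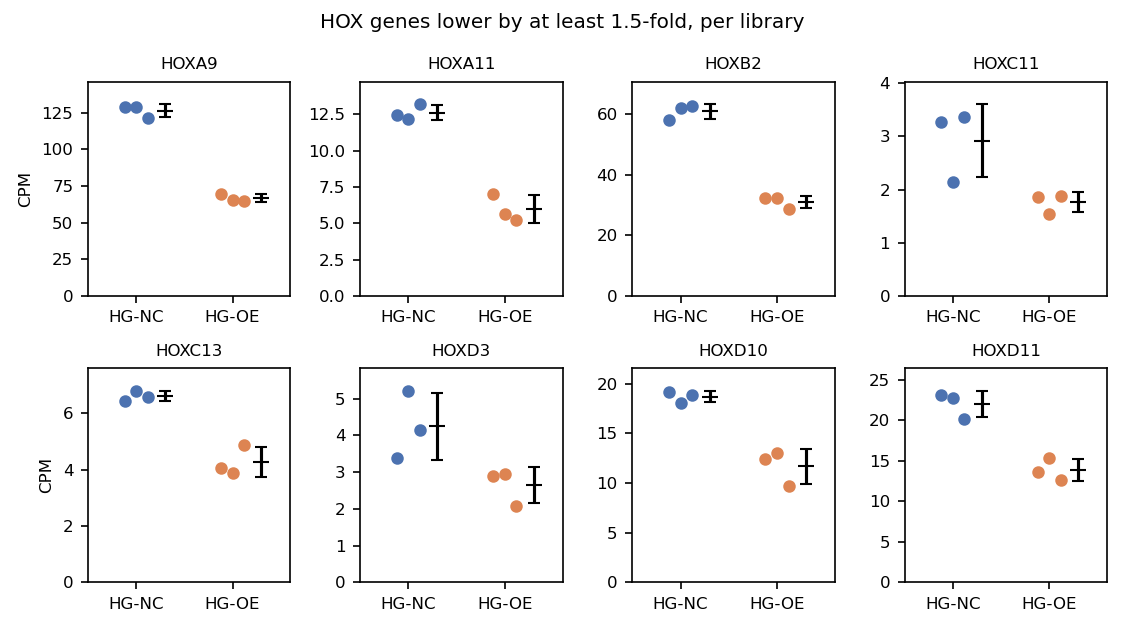
CPM (y axis, linear from 0) of the 8 HOX genes that were lower by at least 1.5-fold, by group (x axis). Points are libraries in replicate order, and the bars beside them are mean and SD of 3 libraries. In each panel the 3 HG-OE libraries lie below the 3 HG-NC libraries, with HOXA9 at 66.7 CPM in HG-OE against 126 CPM in HG-NC.

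The HOXB cluster lies on chromosome 17 from 48540894 to 48728750, on the minus strand. Its genes moved in both directions: of 9 tested, 2 fell (HOXB2 and HOXB9), 2 rose (HOXB4 and HOXB5) and 5 did not pass the test, and the median log2 fold change was -0.0079. The sum over the cluster was 209 ± 2.97 CPM in HG-NC against 165 ± 5.66 CPM in HG-OE, 0.790 of the HG-NC level, without overlap. HOXB2 and HOXB9, at the anterior and the posterior side of the central genes, account for the direction of that sum, being 2 of the 3 most abundant HOXB genes in HG-NC.

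HOXB2, which patterns the hindbrain and the facial nerve, had 1479, 1673 and 1746 counts in HG-NC and 937, 936 and 837 in HG-OE. The HG-OE libraries lay well below the HG-NC libraries, and the CPM was 60.8 ± 2.3 against 31.0 ± 2.1. The log2 fold change was -0.97 ± 0.059 (adjusted p = 2.28e-08), and -0.92 without HG-OE replicate 3. HOXB9, which acts in the ribs and sternum, had 1845, 2014 and 1958 counts in HG-NC and 1709, 1654 and 1505 in HG-OE, and its log2 fold change was -0.38 ± 0.055 (adjusted p = 5.98e-05). Over the 6 libraries HOXB9 gave 30.5% of the HOXB FPKM, and it was the second most abundant member of all in HG-NC, at 25.0 ± 0.680 FPKM against 19.1 ± 1.37 FPKM in HG-OE.

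HOXB4, used to expand blood stem cells, had 286, 280 and 321 counts in HG-NC and 340, 432 and 392 in HG-OE. After scaling to library size, its lowest HG-OE library (11.7 CPM) lay just above its highest HG-NC library (11.5 CPM), and its log2 fold change was 0.27 ± 0.10 (adjusted p = 0.0356). This call was lost without HG-NC replicate 1, 2 or 3 (log2 fold changes of 0.29, 0.23 and 0.31, adjusted p = 0.0745, 0.135 and 0.0620) and without HG-OE replicate 2 (0.19, adjusted p = 0.182), and also with DESeq2 (adjusted p = 0.0517). HOXB5, a gene of the gut and vascular wall, had 119, 146 and 125 counts in HG-NC and 176, 182 and 210 in HG-OE, with a log2 fold change of 0.42 ± 0.13 (adjusted p = 0.0141). Every HG-OE library of HOXB5 was above every HG-NC library, and without HG-NC replicate 3 the log2 fold change was 0.37 (adjusted p = 0.0627).

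The other HOXB genes differed little. HOXB7, the ureteric bud gene, had 784, 875 and 921 counts in HG-NC and 854, 899 and 897 in HG-OE, and with 18.9 ± 0.701 and 17.6 ± 0.353 FPKM it was among the 4 most abundant members. Its log2 fold change was -0.080 ± 0.055 (adjusted p = 0.244). HOXB3 had 264, 286 and 313 counts against 300, 321 and 311, HOXB6 had 129, 135 and 152 against 168, 162 and 162, and HOXB8 had 218, 207 and 190 against 193, 206 and 198. HOXB13, known for its role in the prostate, had 117, 121 and 143 counts against 163, 163 and 149. For these 4 genes the log2 fold changes were -0.0079, 0.12, -0.17 and 0.20, and the adjusted p lay between 0.206 and 0.949. Only HOXB6 of these 4 did not overlap between the groups after scaling. On the same strand, the gene model of HOXB3 spans HOXB4 and HOXB5 and reaches into HOXB6, and that of HOXB7 spans HOXB8 and HOXB9, so the split of reads between them is uncertain.

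The HOXC cluster, on chromosome 12 from 53938831 to 54056030 and on the plus strand, changed least in its sum. The cluster came to 46.8 ± 2.54 CPM in HG-NC against 42.5 ± 0.676 CPM in HG-OE, 0.908 of the HG-NC level, and the lowest HG-NC library (43.9 CPM) lay just above the highest HG-OE library (43.2 CPM). Of 7 tested genes, 2 fell (HOXC11 and HOXC13) and none rose, and the median log2 fold change was -0.0072. Both genes that fell lie at the posterior end of the cluster. HOXC13, which acts in hair and nails, had 164, 184 and 184 counts in HG-NC and 118, 113 and 143 in HG-OE. Its groups did not overlap, and the log2 fold change was -0.63 ± 0.13 (adjusted p = 0.00107). HOXC11, a paralog of HOXA11 and HOXD11, had 83, 58 and 94 counts in HG-NC and 54, 45 and 55 in HG-OE, with a log2 fold change of -0.73 ± 0.21 (adjusted p = 0.0114). HG-NC replicate 2 was close to the HG-OE libraries, and the call was lost without HG-NC replicate 1 (-0.64, adjusted p = 0.0543) or replicate 3 (-0.61, adjusted p = 0.0650).

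HOXC10, a gene of the lumbar spinal cord and hindlimb, gave 44.5% of the HOXC FPKM over the 6 libraries. It had 465, 574 and 610 counts in HG-NC and 526, 540 and 523 in HG-OE, and its log2 fold change of -0.17 ± 0.079 did not pass the test (adjusted p = 0.0862). When HG-NC replicate 1, its lowest HG-NC library, was left out, the log2 fold change was -0.24 (adjusted p = 0.0201). HOXC6 had 204, 250 and 263 counts against 271, 263 and 292, and HOXC9, which marks thoracic motor neurons, had 140, 158 and 143 against 170, 199 and 162. Both overlapped after scaling, with log2 fold changes of 0.087 and 0.15 and adjusted p of 0.507 and 0.356. HOXC4 (39 to 55 counts) and HOXC8 (15 to 34 counts) had log2 fold changes of -0.0072 and 0.53 and adjusted p of 0.982 and 0.169. The gene model of HOXC6 spans HOXC8 and HOXC9 and overlaps that of HOXC4, which spans HOXC5, so the split of reads between them is uncertain.

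The HOXD cluster lies on chromosome 2 from 176092721 to 176190907, on the plus strand. All 7 tested HOXD genes had a log2 fold change below 0, and 4 passed the test: HOXD3, HOXD4, HOXD10 and HOXD11. The median was -0.34, the lowest of the 4 clusters. The sum was 70.7 ± 1.37 CPM in HG-NC against 50.5 ± 4.53 CPM in HG-OE, 0.715 of the HG-NC level, without overlap. HG-OE replicate 3 was the lowest HG-OE library at 45.7 CPM, against 51.2 and 54.7 CPM in replicates 1 and 2.

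HOXD11, which acts with HOXA11 in the forearm and the metanephric kidney, had 589, 615 and 565 counts in HG-NC and 394, 446 and 371 in HG-OE. It gave 29.0% of the HOXD FPKM over the 6 libraries, its groups did not overlap, and the log2 fold change was -0.67 ± 0.088 (adjusted p = 2.58e-05). HOXD10, a gene of the lumbar spinal cord, had 487, 489 and 527 counts in HG-NC and 359, 378 and 283 in HG-OE. Its lowest library was HG-OE replicate 3, and the log2 fold change was -0.68 ± 0.10 (adjusted p = 8.29e-05), or -0.56 without that library. HOXD9 had 223, 234 and 261 counts against 216, 241 and 198, did not overlap after scaling, and did not pass the test (log2 fold change -0.25 ± 0.11, adjusted p = 0.0684). When HG-OE replicate 2 was left out it stood at -0.33 (adjusted p = 0.0396).

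HOXD3, which acts in the neck vertebrae, had 86, 141 and 116 counts in HG-NC and 84, 86 and 61 in HG-OE, and its log2 fold change was -0.68 ± 0.19 (adjusted p = 0.00931). HG-NC replicate 2 was its highest library, and without it the log2 fold change was -0.51 (adjusted p = 0.0710). HOXD4, another gene of the neck, had 159, 168 and 197 counts in HG-NC and 142, 161 and 147 in HG-OE, with a log2 fold change of -0.34 ± 0.12 (adjusted p = 0.0310). That call was lost without HG-NC replicate 1 (-0.36, adjusted p = 0.0502), HG-NC replicate 3 (-0.27, adjusted p = 0.133) or HG-OE replicate 1 (-0.30, adjusted p = 0.0928), and with DESeq2 (adjusted p = 0.0691). HOXD1 had 69, 67 and 83 counts against 72, 75 and 61, and HOXD8 had 201, 198 and 175 against 208, 197 and 210. Both overlapped between the groups, with log2 fold changes of -0.19 and -0.024 and adjusted p of 0.391 and 0.877. The gene model of HOXD3 spans HOXD4 on the same strand, and that of HOXD10 overlaps the end of HOXD11, so their split of reads is uncertain.

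**Figure D4:**
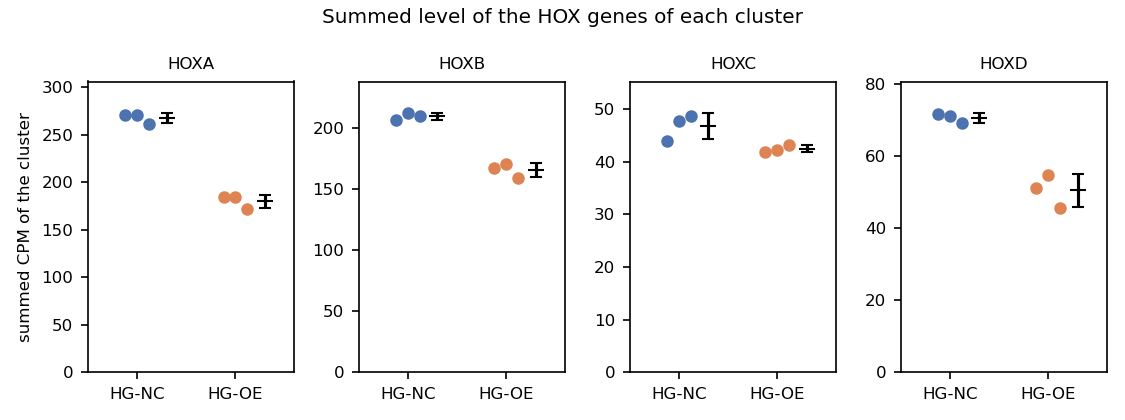
Summed CPM of the HOX genes of each cluster (y axis, linear from 0) by group (x axis). Points are libraries in replicate order, and the bars beside them are mean and SD of 3 libraries. The HG-OE libraries lie below the HG-NC libraries in all 4 clusters, by the widest margin in HOXA (180 against 268 CPM) and the narrowest in HOXC (42.5 against 46.8 CPM).

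Read by paralog group across the clusters, the posterior genes accounted for most of the genes that fell. The counts are to be read beside the 25.9% of all tested genes that were called in each direction. Of 13 tested posterior genes, 8 fell and none rose, with a median log2 fold change of -0.51. Of 14 tested central genes, 2 fell and 2 rose, with a median of 0.039, and of 7 tested anterior genes, 3 fell and none rose, with a median of -0.20. Without HG-OE replicate 3 these medians were -0.47, 0.019 and -0.24. All 3 genes of paralog group 11 fell (HOXA11, HOXC11 and HOXD11), with a median of -0.73. In group 10, HOXA10 and HOXD10 fell and HOXC10 did not pass the test, and in group 9, HOXA9 and HOXB9 fell and HOXC9 and HOXD9 did not pass. Group 13, the most posterior, was mixed. Of its 3 tested genes HOXC13 fell (-0.63), and HOXA13 (0.32 ± 0.43) and HOXB13 (0.20 ± 0.13) did not pass. The median, 0.20, was the value of HOXB13. The summed level of group 13 was 4.04 FPKM in HG-NC and 3.32 FPKM in HG-OE. The summed level of group 11 was 14.3 FPKM in HG-NC and 8.25 FPKM in HG-OE. The difference between these groups of genes was not tested, since the genes of a cluster are not independent of each other.

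The genes around the clusters were read for comparison. Within 10 Mb of the clusters, the other tested genes had a median log2 fold change of 0.0045 around HOXA (85 genes) and 0.063 around HOXC (258 genes), but -0.23 around both HOXB (311 genes) and HOXD (91 genes). On the whole chromosomes the medians were 0.084 on chromosome 7, 0.061 on chromosome 12, -0.19 on chromosome 17 and -0.25 on chromosome 2. After removing the median of its neighbours from each gene, the cluster medians were -0.19 for HOXA, 0.22 for HOXB, -0.070 for HOXC and -0.11 for HOXD. The HOXA median thus stayed close to its fitted value, the HOXD median moved toward 0 and the HOXB median changed sign. With neighbours removed, HOXB2 remained at -0.75, HOXD11 at -0.44 and HOXB9 at -0.15, and HOXB4 and HOXB5 were at 0.50 and 0.65.

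The nearest tested protein-coding genes outside each cluster moved by at most 0.32 on the log2 scale. Beside HOXA, SKAP2 fell by 0.15 and HIBADH rose by 0.26 on the log2 scale, with adjusted p of 0.0137 and 0.00122. Beside HOXB, SKAP1 rose by 0.24 (adjusted p = 0.0230), and TTLL6 stood at 0.29 without passing the test (adjusted p = 0.280). Beside HOXC, CALCOCO1 rose by 0.23 (adjusted p = 0.00759), and SMUG1 stood at 0.080 (adjusted p = 0.253). Beside HOXD, LNPK fell by 0.15 and MTX2 by 0.32, with adjusted p of 0.0437 and 0.000116. Both genes that flank HOXD therefore fell, as did 4 of the 7 tested HOXD genes, beside 25.9% of all tested genes. Both genes that flank HOXB stood above 0, where the median of the genes within 10 Mb was -0.23. A shared change of a cluster and its flanking genes was not tested.

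**Figure D5:**
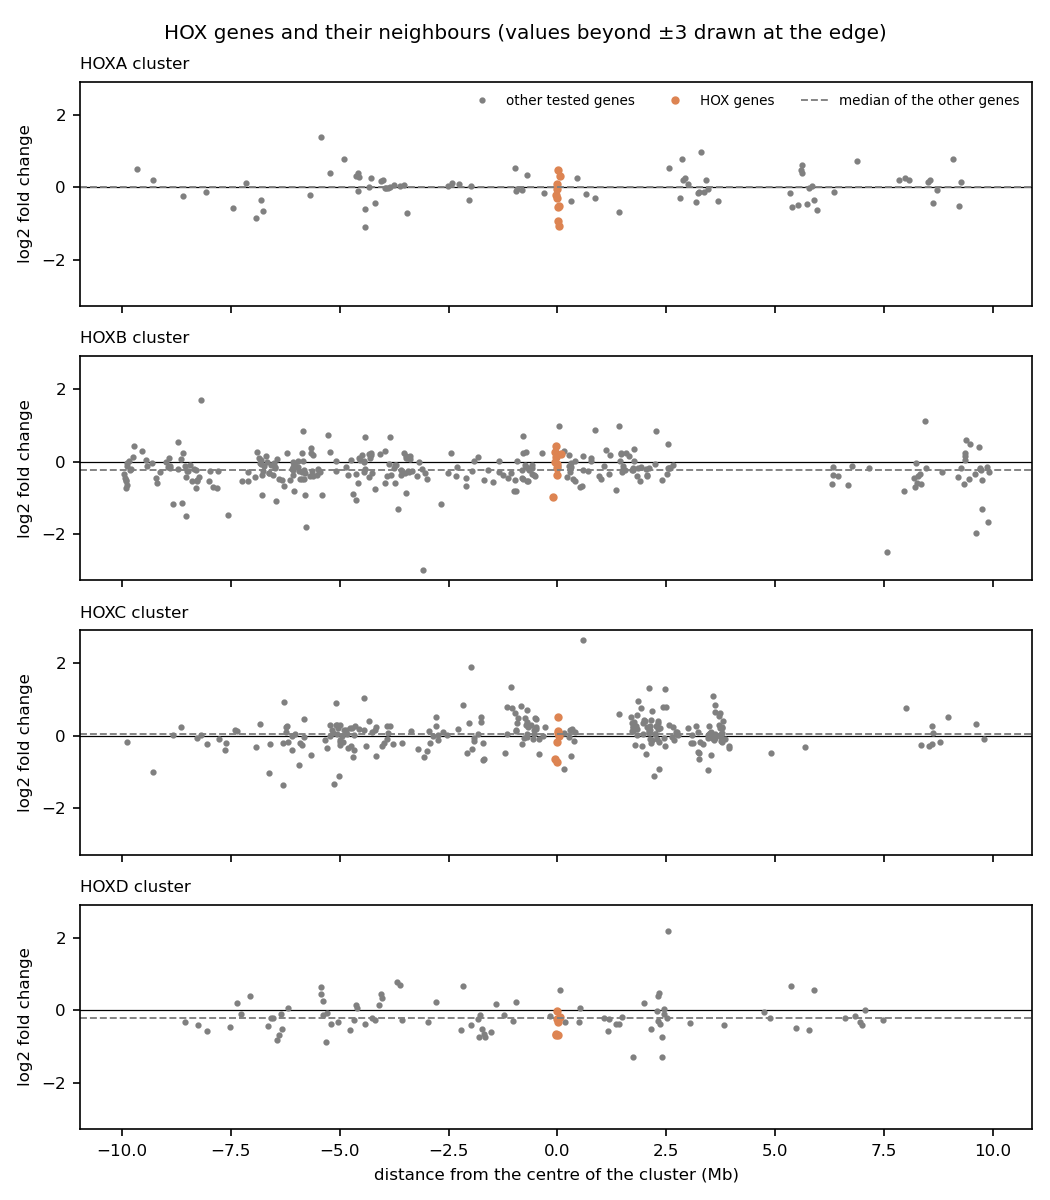
Log2 fold change (y axis) of HOX genes and of all other tested genes within 10 Mb, against the distance from the centre of the cluster in Mb (x axis). The dashed line is the median of the other genes, and values beyond 3 are drawn at the edge. The HOXA genes reach -1.08 where the median around them is 0.0045, and the HOXD genes lie at or below 0 where the median around them is -0.23.

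Noncoding RNAs of the HOX clusters were counted from a list of 20, of which 18 were listed and 12 tested. Of these 12, 3 fell and 1 rose, with a median log2 fold change of -0.21, beside 25.9% of all tested genes in each direction. HOXA10-AS, which overlaps HOXA9 and HOXA10 on the opposite strand, had 676, 680 and 675 counts in HG-NC and 564, 517 and 513 in HG-OE, and its log2 fold change was -0.47 ± 0.070 (adjusted p = 7.79e-05). HAGLR, in the HOXD cluster, had 744, 732 and 738 counts against 654, 711 and 606 (log2 fold change -0.29, adjusted p = 0.00415), and HOXD-AS2 had 113, 106 and 125 against 108, 89 and 87 (-0.40, adjusted p = 0.0424). HOXB-AS3 rose from very low levels, with 5, 6 and 8 counts in HG-NC and 17, 13 and 29 in HG-OE (log2 fold change 1.5 ± 0.43, adjusted p = 0.00976, and 1.11 without HG-OE replicate 3). HOXA11-AS, named after its values were seen, had 40, 79 and 47 counts in HG-NC and 83, 67 and 58 in HG-OE, and its log2 fold change of 0.21 ± 0.25 did not pass the test (adjusted p = 0.516). HOXA10-AS fell, as HOXA9 and HOXA10 did, and no fall was found for HOXA11-AS beside HOXA11. Since the strand setting of the counting is not given, reads of HOXA9 and HOXA10 may have been counted in the HOXA10-AS row.

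Genes known to act with HOX proteins or on HOX clusters were read from 3 lists, whose counts are to be read against the 25.9% of all tested genes that were called in each direction. Of the 8 tested cofactors of the TALE class, PBX2 rose by 0.29 (adjusted p = 0.000704) and MEIS2 stood lower at -0.26 (adjusted p = 0.0458), and 6 did not pass the test. Of 27 Polycomb genes, all tested, 12 fell and 5 rose, with a median of -0.090. RNF2, a catalytic subunit of Polycomb repressive complex 1, fell by 0.67 on the log2 scale, and EZH1 and SUZ12, of Polycomb repressive complex 2, each fell by 0.49. CBX6, PHF19 and PHC1 rose by 0.49, 0.39 and 0.35. Of 12 genes for MLL/COMPASS complexes and H3K27 demethylases, 5 fell and 2 rose, with a median of -0.059. WDR5, a shared subunit of the MLL complexes, fell by 0.48, the demethylase KDM6A by 0.38 and DPY30 by 0.34, and KMT2B and MEN1 rose by 0.30 and 0.22. No gene of the Polycomb or the MLL list changed by 2-fold.

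Retinoic acid induces anterior HOX genes in the embryo. Of 16 genes for its synthesis, breakdown and receptors, 12 were tested, of which 5 rose and 2 fell, beside 25.9% of all tested genes in each direction. ALDH1A3, which makes retinoic acid, had 409, 478 and 477 counts in HG-NC and 1614, 1882 and 1860 in HG-OE, and its log2 fold change was 1.85 ± 0.069 (adjusted p = 3.74e-10). ALDH1A2 rose by 0.47 (adjusted p = 0.0377), or stood at 0.33 without HG-OE replicate 3. CYP26B1, which breaks retinoic acid down, rose by 1.01 (adjusted p = 0.0401) through HG-OE replicate 3, with 52, 44 and 150 counts in HG-OE against 29, 42 and 41 in HG-NC, and stood at 0.25 without it. The receptor genes RARA and RXRB fell by 0.23 and 0.20 (adjusted p = 0.0238 and 0.0103). ALDH1A1, named after its values were seen, had 1565 counts in HG-OE replicate 3 and 0 to 10 in the other libraries, and it was not tested. Of the 7 tested anterior HOX genes, as given above, 3 fell and none rose. A relation between the retinoic acid genes and the HOX genes was not tested. CDX1, CDX2, EVX2 and GSX2, homeobox genes related to the HOX genes, had at most 8 counts in any library except for 40 counts of CDX2 in HG-OE replicate 3, and none was tested, and these 4 were named after their values were seen.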

How the data were processed

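RNA-seq libraries of HK-2 cells were grouped as HG-NC (3) and HG-OE (3) from their labels and the study's methods. After trimming, the authors aligned reads to GRCh38 with HISAT2 and counted unique alignments on each gene, and the deposited counts are whole numbers. The authors also deposited FPKM values from the same reads, rounded to 2 decimals. The annotation release and strand setting of the counting are not given in the sources used here. The study names ComBat_seq for batch correction, and whether it entered these counts is not stated.

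The groups were compared in R 4.3.3 by edgeR 4.0.16 (TMM, default low-count filter, quasi-likelihood test, Benjamini-Hochberg adjustment over 17142 genes). CPM are scaled by TMM, and each SE was taken from the log2 fold change and its F value. The biological coefficient of variation was 0.0683. A gene rose or fell at an adjusted p under 0.05, and the 2-fold threshold is that of the study. Positions are from GENCODE release 44 on GRCh38. The members, gene lists and marker lists were chosen with earlier results of these data known. The values of 1 member are not reported here, though sums, medians and counts include it. Every other member with a mean of at least 1 FPKM or a 2-fold call was given with its counts, as were the members that passed the test, and the 3 largest changes in each direction could be named from a list. The median log2 fold change of genes within 10 Mb was computed over the tested genes outside the HOX set. Same-numbered libraries did not deviate together (correlations from -0.027 to 0.030), so replicate numbers were not used as pairs.

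The alternatives were the size factors of DESeq2 1.42.0 and its Wald test, other low-count filters, a block for replicate number, fits that left out each library, limma 3.58.1 on log2 FPKM, and removal of the median of neighbours. The steps were tested on simulated data in which every planted change exceeded 2-fold. Changes as small as most of the HOX differences were not covered by that test.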

Additional observations from a re-analysis of the deposited data

How the results depend on the processing

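Of the 13 HOX genes that fell, 10 were lower at an adjusted p under 0.05 in the main comparison and in all 14 alternative fits (HOXA3, HOXA7, HOXA9, HOXA10, HOXA11, HOXB2, HOXB9, HOXC13, HOXD10 and HOXD11). The count of HOX genes that rose was 1 in place of 2 with no low-count filter, with the Wald test of DESeq2, and with limma on log2(FPKM + 1), on log2(FPKM + 0.1) and on log2(FPKM + 1) without a filter, and it ranged from 0 to 2 when each library was left out, while the count that fell ranged from 11 to 14. With a threshold of 1.5-fold, chosen after seeing the data, 0 rose and 8 fell. The count lower by 2-fold was 0 with limma on log2(FPKM + 1), with or without the filter, a scale that understates changes of low genes, and it ranged from 0 to 2 without single libraries: 2 without HG-NC replicate 1 or HG-OE replicate 1, 0 without HG-OE replicate 3. The count higher by 2-fold ranged from 0 to 1, the 1 being HOXA6 without HG-NC replicate 2. The HOXD median of -0.34 was -0.21 with limma on log2(FPKM + 1) without a filter and -0.11 with the median of neighbours removed, where the HOXB median was 0.22. None of these causes was tested.

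Among genes that did not pass the test, the sign changed for HOXC4 with at least 10 counts in every library (2.7e-05) and, without single libraries, in fits whose values ranged from -0.38 to 0.064 for HOXA2, from -0.032 to 0.029 for HOXB3, from -0.091 to 0.14 for HOXC4 and from -0.11 to 0.054 for HOXD8. Adding HOXA9, HOXA10 and their read-through row, chosen after seeing the data, gave -0.81 in place of -0.92 for HOXA9 alone. With the replicate block, 13 HOX genes fell and 2 rose, as without it, and 1 was lower by 2-fold, so the block changed no count. The 8 tested members with a mean under 100 counts had SEs of 0.18 to 0.43 on the log2 scale, and of these HOXC11 and HOXD3 passed the test, so depth limits the precision for the others.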

Other observations

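Transcription factors of the kidney lineage, which act beside the HOX genes when the kidney forms, were read from a list of 14, of which 13 were listed and 9 tested. LHX1, which is needed for nephron formation, had 594, 548 and 589 counts in HG-NC and 1044, 1194 and 1047 in HG-OE, and its log2 fold change was 0.80 ± 0.073 (adjusted p = 8.71e-07 by edgeR). SALL1, which maintains nephron progenitors, rose by 0.52 (adjusted p = 0.000102), from 16.6 ± 0.29 to 23.8 ± 2.3 CPM. PAX8, the most abundant of the list, fell by 0.51 (adjusted p = 3.04e-06), with 15331, 17726 and 18291 counts in HG-NC and 13408, 13747 and 11953 in HG-OE. SIX2, a gene induced by the paralogs of HOX group 11 in nephron progenitors, was low, with 11 to 39 counts, and its log2 fold change of 0.63 ± 0.35 did not pass the test (adjusted p = 0.147). WT1 had 1 count in HG-NC replicate 1 and 0 in the other libraries, and HNF4A had 323 counts in HG-OE replicate 3 and 0 in the other libraries, the library in which other hepatocyte and squamous markers were also present. WT1, SIX2 and HNF4A were named after their values were seen. No relation between these genes and the HOX genes was tested.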
